A study of Mus musculus with 16 samples.

Results

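Insulin leaves a beta cell by exocytosis of dense-core granules, and 40 genes for the granule and for the machinery that docks and fuses it were followed in R7T1 cells given 2 stimulants of secretion. The genes were listed by name, and each was read from its probe set with the highest mean among those at a log2 intensity of 4 or more on at least 2 arrays. A probe set carried 39 of the 40 symbols, 38 passed that level, and they were tested among 10610 genes, of 18193 with a probe set. The expression of Pcsk2 was not analysed here, and only its upstream sequence was counted. Syt5, a synaptotagmin, read between 2.01 and 2.15 on all arrays and was not tested.

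R7T1 is a mouse beta-cell line whose growth is kept up by a regulated viral T antigen, and the labels do not say whether that antigen was on during treatment. The 16 expression arrays were 1 per treatment and time: vehicle (DMSO), BayK8644, exendin-4, or both agents together (here, the combination), each at 0.5, 2, 6 and 24 h. BayK8644 opens L-type calcium channels and carries the added mark "(2a)" in the labels, and exendin-4 activates the GLP-1 receptor, which raises cAMP; no dose is given. No treatment was repeated at a time, so an agent was tested on the arrays with it against those without it, 2 against 2 at one time and 8 against 8 over all times. The labels do not tie arrays to separate cultures, so spread between arrays may be technical. With 1 array per treatment and time, the p-values rest on the spread that a model leaves over. Besides spread between arrays, that holds any effect the model leaves out. Over all times this is a treatment effect that changes with time. At one time it is a joint effect of both agents beyond their sum.

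Granule cargo is packed with chromogranins and secretogranins, cut by prohormone convertases and trimmed by carboxypeptidase E. Rab3 and Rab27 proteins and their effectors bring the granule to the plasma membrane, where Vamp2 on the granule pairs with Snap25 and Stx1a on the membrane, under the control of Munc13, CAPS, complexin and Doc2 proteins. Calcium entering through L-type channels is read by synaptotagmins and Doc2 proteins, and cAMP from GLP-1 receptor signalling adds to that release.

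The array medians over the genes tested lay between 9.86 and 9.93. The arrays held 7 of 7 measured beta-cell markers above the filter, Ins2 between 15.60 and 15.79, and 0 of 7 markers of mesenchymal, endothelial and blood cells, which read between 1.73 and 4.08. Of the islet markers of other endocrine cells, 3 of 5 passed the filter, and 1 of 6 of acinar and duct markers did. In total RNA from a culture, fewer cells that express a gene and less of its RNA per cell cannot be told apart.

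The genes covered a wide range of signal, from a mean of 5.40 for Pam to 15.61 for Scg2, although signals of different probe sets are not comparable as amounts of RNA. Within a gene the range over the 16 arrays had a median of 0.51, beside 0.50 for all genes tested. A change over 1 log2 unit was rare: 1 of 38 genes, Ptprn, beside 11.65% of all genes. In 1 or more of the 14 comparisons 21 of the 38 passed, at an adjusted p under 0.05 from limma with Benjamini-Hochberg adjustment over all 10610 genes. The other 17 passed none, and their ranges over the arrays ran from 0.16 for Cpe to 0.92 for Vamp8. The share of all genes that passed in any of the 14 was not counted, so the 21 have no background to be read against. Of all genes, 23.6% passed for culture time alone and 8.54% for BayK8644 over all times.

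The 7 upstream sequences show how the start regions of these genes differ in the motif read by cAMP- and calcium-activated CREB, the element TGACGTCA and its shorter form TGACG, called a half-site. The windows are the 250 bases before a gene's start as listed in the table of RefSeq promoters used here, build GRCm38.p6, taking the farthest upstream where the table lists several, and were searched on both strands. The full element holds 2 overlapping half-sites. Of 27 windows whose gene has bounds in RefSeq, 16 begin at a start that lies inside those bounds, so the annotated gene reaches farther upstream; of the printed sequences these are Pcsk1, Ptprn, Sytl4 and Cadps. Of the 40 genes 28 had an entry. Those without one were Cpe, Slc30a8, Syt4, Syt5, Syt7, Syt13, Snap25, Vamp2, Vamp3, Rab37, Rims2 and Doc2b. The half-site stood in 16 of the 28 windows, beside 17.8% of the 32851 windows listed for all genes. The full element stood in 3, Chgb, Scg2 and Pcsk1, beside 1.5%. The GC box GGGCGG stood in 18 of 28 windows, beside 32.7%, and the TATA box TATAAA in 2, beside 12.4%. The windows were also richer in G and C, with a median of 58.0% against 52.4%. The 28 are 1 window per gene, while the 32851 are every listed window and were not limited to the genes tested. The shares therefore come from unlike sets. These are matches of letters and show no binding. The sequences run 5′ to 3′ toward the start, with half-sites and GC boxes in capitals. They are the 3 genes with the full element, 2 genes that rose with time in culture (Chga and Ptprn), and the 2 that fell with BayK8644 and had an entry (Sytl4 and Cadps), which hold neither motif. The windows of Cplx2, Nsf, Stx3 and Vamp8, which did not pass for BayK8644, hold neither motif either. Pam, Pcsk1n and Cplx2 also rose with time and hold no half-site. Whether motif and direction of change go together was not tested.

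Chgb: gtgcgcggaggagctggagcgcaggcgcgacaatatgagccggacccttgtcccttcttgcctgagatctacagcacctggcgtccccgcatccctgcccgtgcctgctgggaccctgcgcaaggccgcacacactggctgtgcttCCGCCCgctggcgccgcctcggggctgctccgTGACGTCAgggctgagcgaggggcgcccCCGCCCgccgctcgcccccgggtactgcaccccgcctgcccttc
Scg2: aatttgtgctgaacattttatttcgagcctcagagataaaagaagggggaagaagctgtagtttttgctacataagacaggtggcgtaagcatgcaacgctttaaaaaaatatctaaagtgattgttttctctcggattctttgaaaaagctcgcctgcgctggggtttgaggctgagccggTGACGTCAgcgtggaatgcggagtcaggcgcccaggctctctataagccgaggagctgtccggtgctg
Pcsk1: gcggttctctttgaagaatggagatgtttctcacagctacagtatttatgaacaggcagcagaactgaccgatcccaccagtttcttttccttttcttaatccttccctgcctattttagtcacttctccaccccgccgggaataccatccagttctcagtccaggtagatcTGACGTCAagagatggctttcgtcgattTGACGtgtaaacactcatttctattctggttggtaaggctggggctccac
Chga: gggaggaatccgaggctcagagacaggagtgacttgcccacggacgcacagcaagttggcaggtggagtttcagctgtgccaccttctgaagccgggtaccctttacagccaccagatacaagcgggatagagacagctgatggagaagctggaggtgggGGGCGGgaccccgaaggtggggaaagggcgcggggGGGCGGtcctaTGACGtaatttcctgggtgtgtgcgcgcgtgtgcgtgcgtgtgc
Ptprn: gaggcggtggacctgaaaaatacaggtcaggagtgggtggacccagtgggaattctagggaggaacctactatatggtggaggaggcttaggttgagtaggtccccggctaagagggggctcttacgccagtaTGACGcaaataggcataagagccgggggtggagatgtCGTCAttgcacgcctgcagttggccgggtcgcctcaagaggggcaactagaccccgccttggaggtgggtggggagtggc
Sytl4: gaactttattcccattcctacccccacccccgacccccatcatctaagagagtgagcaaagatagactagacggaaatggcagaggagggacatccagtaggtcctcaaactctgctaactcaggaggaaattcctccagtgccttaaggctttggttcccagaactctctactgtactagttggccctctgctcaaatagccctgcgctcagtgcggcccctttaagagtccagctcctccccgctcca
Cadps: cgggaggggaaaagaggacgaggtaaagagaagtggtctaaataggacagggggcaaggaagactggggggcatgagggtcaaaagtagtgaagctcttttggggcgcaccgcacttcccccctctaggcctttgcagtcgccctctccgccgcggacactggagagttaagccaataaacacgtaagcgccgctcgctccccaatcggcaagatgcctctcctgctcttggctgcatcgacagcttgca

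In Chgb, at chr2:132781392-132781641 on the plus strand, the element lay 72 to 65 bases before the start. It lay 68 to 61 bases before it in Scg2, at chr1:79440027-79440276 on the minus strand, and 78 to 71 bases before it in Pcsk1, at chr13:75089607-75089856 on the plus strand. The Chga window, at chr12:102554691-102554940 on the plus strand, held 1 half-site 44 to 40 bases before the start and 2 GC boxes. The Ptprn window, at chr1:75264209-75264458 on the minus strand, held 2 half-sites and no GC box. The Sytl4 window is chrX:133981813-133982062 on the minus strand and that of Cadps chr14:12823080-12823329 on the minus strand.

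With BayK8644 present, Syt13, Sytl4, Rab37 and Doc2b were lower and Chgb and Syt4 higher. The 5 granule matrix genes, Chgb among them, differed by -0.09 to 0.11 on the log2 scale. Over all times 4 of 38 genes fell and 2 rose, beside 3.69% and 4.85% of all genes. The 4 that fell had log2 differences from -0.36 to -0.22. The members' median difference was 0.02, beside 0.01 for all genes. In the accounts that follow, 4 values in a row are log2 intensities at 0.5, 2, 6 and 24 h, a log2 difference is with minus without the agent, and ± is the standard error of the fit.

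**Figure D1:**
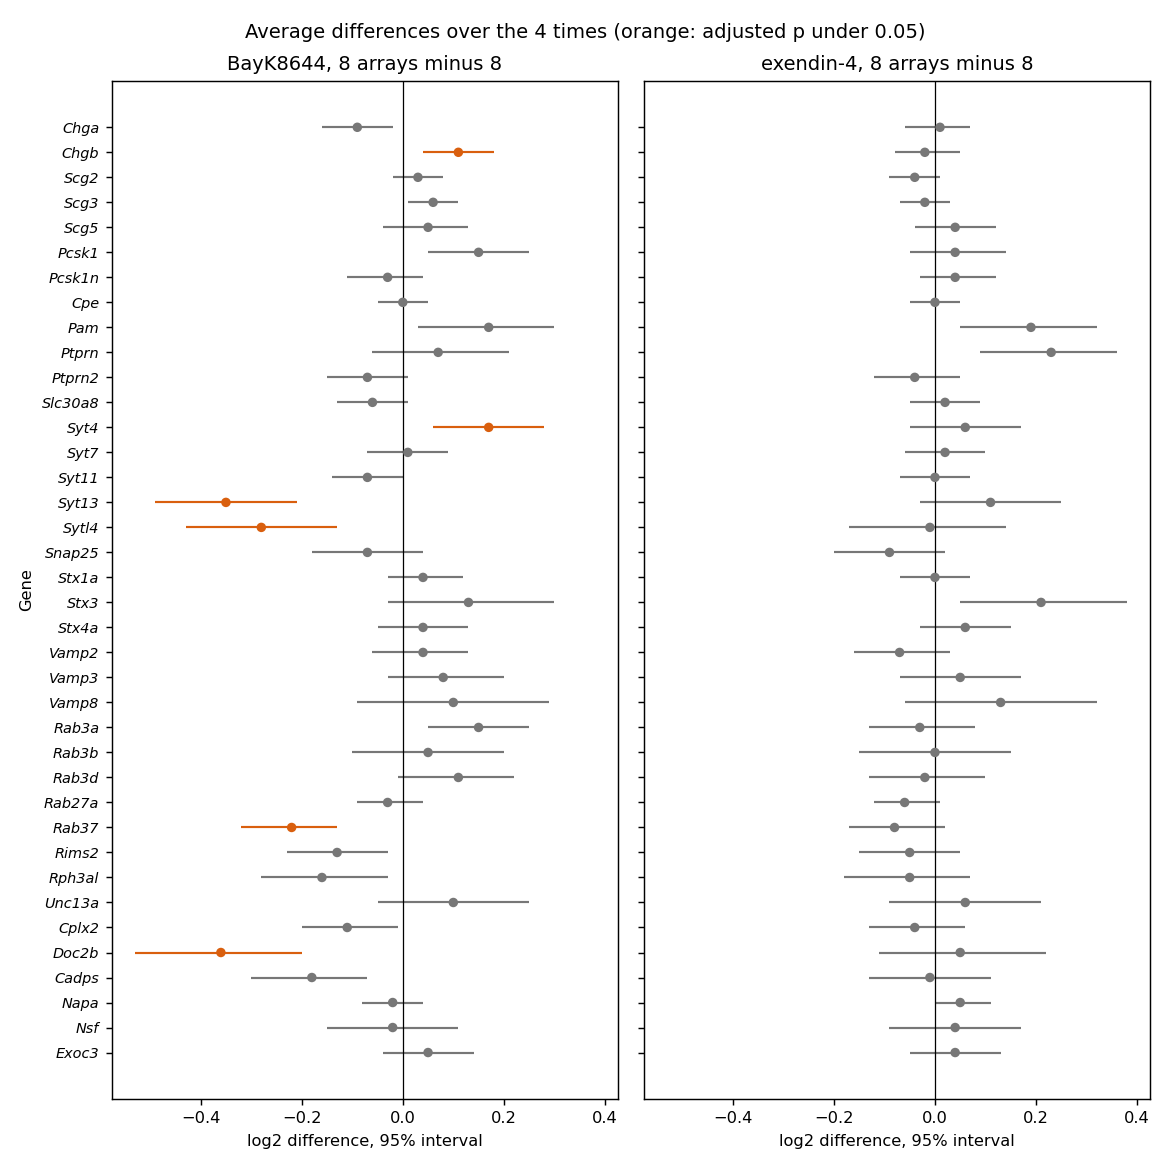
Log2 difference averaged over the 4 times, with its 95% interval, for BayK8644 present minus absent (left) and exendin-4 present minus absent (right), 8 arrays against 8, in 38 genes ordered by role. Orange marks an adjusted p under 0.05: Syt13, Sytl4, Rab37 and Doc2b lie left of 0 and Chgb and Syt4 right of it under BayK8644, and no gene is orange under exendin-4.

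Among granule matrix proteins, 1 of 5 rose. Chgb, an acidic granin that aggregates in the forming granule, stood at 14.03, 14.14, 14.19 and 14.38 with DMSO, 14.00, 14.10, 14.05 and 14.45 with exendin-4, 14.11, 14.14, 14.22 and 14.63 with BayK8644, and 14.00, 14.21, 14.29 and 14.63 with the combination. Its difference was 0.11 ± 0.03 (adjusted p = 0.0496), with 7 of 8 pairs of arrays higher and the groups overlapping. That call is marginal: it was lost at adjusted p up to 0.115 on leaving out any 1 array other than DMSO 0.5 h, BayK8644 2 h, exendin-4 0.5 h or combination 0.5 h, and in 5 of 7 other settings. Chga, the granin cut to pancreastatin, had the opposite sign at -0.09 ± 0.03 (adjusted p = 0.0816) and was lower in all 6 pairs from 2 h on. Scg2 and Scg5 differed by 0.03 ± 0.02 and 0.05 ± 0.04. Scg3 differed by 0.06, which did not pass, and was higher in all 8 pairs. How many of all genes had pairs of the same sign throughout was not counted, here or for the genes below.

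Scg2, the member with the strongest signal, hardly moved. It measured 15.57, 15.68, 15.68 and 15.60 with DMSO, 15.52, 15.62, 15.49 and 15.57 with exendin-4, 15.58, 15.60, 15.66 and 15.65 with BayK8644, and 15.57, 15.68, 15.64 and 15.60 with the combination. Its 16 values span 0.19, and the groups overlap.

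None of the 4 prohormone processing genes passed. Cpe, the carboxypeptidase that trims basic residues from cut hormone, read 15.56, 15.59, 15.57 and 15.53 with DMSO, 15.55, 15.59, 15.55 and 15.60 with exendin-4, 15.53, 15.52, 15.56 and 15.66 with BayK8644, and 15.56, 15.56, 15.50 and 15.62 with the combination. Its difference was -0.00 ± 0.02, with a 95% interval from -0.05 to 0.05. The largest of the 4 were Pam, the enzyme that amidates peptide ends, at 0.17 ± 0.06 (adjusted p = 0.113) and the convertase gene Pcsk1 at 0.15 ± 0.05 (adjusted p = 0.0584). For Pcsk1, BayK8644 minus DMSO was 0.00, 0.01, -0.02 and -0.02 at 0.5, 2, 6 and 24 h. Combination minus exendin-4 was 0.04, 0.29, 0.41 and 0.48, so the average came from the combination pairs. Pam was higher in all 8 pairs. Of the 3 granule membrane genes none passed either. Ptprn2, a phosphatase-like membrane protein of the granule, stood at 13.96, 14.07, 14.06 and 14.01 with DMSO, 13.87, 13.96, 13.78 and 14.10 with exendin-4, 13.92, 13.81, 13.84 and 13.99 with BayK8644, and 13.92, 13.99, 13.85 and 13.90 with the combination. Slc30a8, the transporter that loads zinc into the granule, was lower in all 6 pairs from 2 h on, at -0.06 ± 0.03 over all times (adjusted p = 0.248).

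Of the 5 synaptotagmins and synaptotagmin-like genes, 2 fell and 1 rose. Syt13, an atypical synaptotagmin that lacks the residues for binding calcium, measured 11.59, 11.76, 11.55 and 11.59 with DMSO, 11.66, 11.71, 11.75 and 11.68 with exendin-4, 11.56, 11.24, 11.07 and 11.09 with BayK8644, and 11.67, 11.27, 11.21 and 11.36 with the combination. From 2 h on, every array with BayK8644, alone or with exendin-4, lay below every array without it, while at 0.5 h the values overlap. Over all times the difference was -0.35 ± 0.06 (adjusted p = 0.00645), 1.28-fold lower. It was -0.49 ± 0.07 at 2 h (adjusted p = 0.00847), -0.51 ± 0.07 at 6 h (adjusted p = 0.0052) and -0.41 ± 0.07 at 24 h (adjusted p = 0.0107). The second Syt13 probe set gave -0.41, -0.47 and -0.42 at these times.

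Sytl4, which encodes granuphilin, a Rab27a effector that docks granules at the plasma membrane, read 13.65, 13.56, 13.64 and 13.69 with DMSO, 13.67, 13.48, 13.56 and 13.74 with exendin-4, 13.73, 13.37, 13.17 and 13.12 with BayK8644, and 13.69, 13.37, 13.08 and 13.20 with the combination. The arrays with BayK8644 lay above those without it at 0.5 h and below them from 2 h on. The difference was -0.15 ± 0.05 at 2 h (adjusted p = 0.245), -0.48 ± 0.05 at 6 h (adjusted p = 0.0018) and -0.56 ± 0.05 at 24 h (adjusted p = 0.000499), 1.47-fold lower. Over all times it was -0.28 ± 0.07 (adjusted p = 0.0267). The average call was lost, at adjusted p up to 0.0703, on leaving out DMSO 2, 6 or 24 h or the 6 or 24 h array of any other treatment. A second, dim Sytl4 probe set with a mean of 5.65 gave -0.44, 0.08 and -0.28 at 2, 6 and 24 h, so the sign differed at 6 h, and the mean of both probe sets did not pass there (adjusted p = 0.394).

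Syt4, a synaptotagmin of secretory vesicles, stood at 12.50, 12.30, 12.41 and 12.47 with DMSO, 12.48, 12.51, 12.63 and 12.70 with exendin-4, 12.43, 12.58, 12.73 and 13.01 with BayK8644, and 12.54, 12.52, 12.62 and 12.94 with the combination. At 24 h both arrays with BayK8644 lay above both without it, by 0.40 ± 0.10 (adjusted p = 0.06), while at 6 h the combination lay just below exendin-4. Over all times the difference of 0.17 ± 0.05 was just under the threshold (adjusted p = 0.05, rounded). It was lost on leaving out any 1 array other than the 0.5 h arrays of DMSO, BayK8644 and the combination (adjusted p up to 0.112). It was also lost in 4 of 7 other settings (up to 0.101). The second Syt4 probe set, with a mean of 11.12, gave 0.30 over all times and 0.45, 0.41 and 0.28 at 2, 6 and 24 h. On that probe set the combination at 6 h (11.42) lay above exendin-4 (11.01). Syt11, the dimmest of this role by mean, measured 11.30, 11.27, 11.33 and 11.34 with DMSO, 11.25, 11.26, 11.31 and 11.39 with exendin-4, 11.33, 11.14, 11.21 and 11.23 with BayK8644, and 11.30, 11.25, 11.18 and 11.24 with the combination. Its difference of -0.07 ± 0.03 did not pass (adjusted p = 0.189), although all 6 pairs from 2 h on were lower.

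None of the 7 SNARE genes passed under BayK8644, with differences over all times from -0.07 to 0.13. Snap25, the plasma membrane SNARE protein cut by botulinum toxin A, read 13.09, 13.01, 13.08 and 13.43 with DMSO, 13.08, 13.07, 12.92 and 13.30 with exendin-4, 13.07, 13.17, 13.09 and 13.10 with BayK8644, and 13.16, 12.85, 12.89 and 13.09 with the combination. The DMSO array at 24 h was the highest, and the groups overlap over all times. The difference at 24 h was -0.27 ± 0.08 (adjusted p = 0.106). A second, dim Snap25 probe set with a mean of 6.52 had the opposite sign, at 0.60, 0.35 and 0.55 at 2, 6 and 24 h. Stx3, a syntaxin whose probe set was the dimmest of this role, stood at 5.75, 5.90, 5.89 and 5.88 with DMSO, 5.83, 5.85, 5.87 and 5.95 with exendin-4, 5.68, 5.85, 5.75 and 5.91 with BayK8644, and 5.87, 5.95, 6.40 and 6.59 with the combination. The combination arrays at 6 and 24 h stood above all others, and the difference over all times was 0.13 ± 0.08 (adjusted p = 0.291). The vesicle SNARE genes Vamp2, Vamp3 and Vamp8 differed by 0.04 ± 0.04, 0.08 ± 0.06 and 0.10 ± 0.09, and Stx1a, a syntaxin of the plasma membrane, by 0.04 ± 0.03.

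Of the 7 Rab and effector genes, 1 fell. Rab37, a small GTPase found on secretory granules, measured 10.78, 10.95, 10.78 and 11.03 with DMSO, 10.75, 10.93, 10.68 and 10.97 with exendin-4, 10.81, 10.77, 10.48 and 10.68 with BayK8644, and 10.65, 10.51, 10.47 and 10.71 with the combination. From 2 h on both arrays with BayK8644 lay below both without it. The difference over all times was -0.22 ± 0.05 (adjusted p = 0.011), lower in 7 of 8 pairs, and at 2, 6 and 24 h it was -0.30 ± 0.08, -0.25 ± 0.08 and -0.30 ± 0.08, none past the threshold alone. The second Rab37 probe set gave -0.11 over all times. Rab27a, the GTPase that granuphilin binds, differed by -0.03 ± 0.03 (adjusted p = 0.592). Rab3d, another Rab3 GTPase, differed by 0.11 ± 0.05 (adjusted p = 0.211). Rims2, an active-zone scaffold that binds Rab3, read 11.85, 11.69, 11.80 and 11.89 with DMSO, 11.76, 11.86, 11.90 and 12.21 with exendin-4, 11.89, 11.83, 11.80 and 11.90 with BayK8644, and 11.76, 11.55, 11.55 and 11.66 with the combination. The combination arrays from 2 h on were its lowest 3, and the difference was -0.13 ± 0.05 (adjusted p = 0.103).

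Of the 7 genes for priming, fusion control and recycling, 1 fell over all times and another at 24 h. Doc2b, a calcium sensor with paired C2 domains that promotes granule fusion, stood at 10.06, 10.22, 9.97 and 9.84 with DMSO, 10.00, 10.22, 9.93 and 9.95 with exendin-4, 10.07, 9.78, 9.26 and 9.32 with BayK8644, and 10.07, 9.92, 9.52 and 9.34 with the combination. At 0.5 h the arrays with BayK8644 lay just above those without it, and from 2 h on both arrays with BayK8644 lay below both without it. The difference over all times was -0.36 ± 0.08 (adjusted p = 0.0122), and it was -0.56 ± 0.10 at 6 h (adjusted p = 0.0194) and -0.56 ± 0.10 at 24 h (adjusted p = 0.0134), 1.47-fold lower. The second Doc2b probe set gave -0.22, -0.46 and -0.71 at 2, 6 and 24 h.

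Cadps, which encodes the priming factor CAPS1, measured 11.29, 11.39, 11.31 and 11.64 with DMSO, 11.30, 11.28, 11.18 and 11.63 with exendin-4, 11.28, 11.26, 11.00 and 11.14 with BayK8644, and 11.35, 11.24, 11.03 and 11.23 with the combination. At 24 h the arrays without BayK8644 lay above all their earlier values and those with it did not, and the difference was -0.45 ± 0.07 (adjusted p = 0.00908). Over all times the difference was -0.18 ± 0.06 (adjusted p = 0.054). The clamp protein gene Cplx2 was lower in all 6 pairs from 2 h on, at -0.11 ± 0.04 (adjusted p = 0.132). Its other probe sets, with means of 9.88 and 8.02, each gave -0.28 over all times. The brighter of them gave -0.31, -0.40 and -0.45 at 2, 6 and 24 h, and the dimmer 0.07, -0.72 and -0.58. Rph3al, a Rab effector, was also lower in all 6 pairs from 2 h on, at -0.16 ± 0.06 (adjusted p = 0.1). Nsf, the ATPase that takes SNARE complexes apart, differed by -0.02 ± 0.06, and Exoc3, a subunit of the exocyst tethering complex, by 0.05 ± 0.04.

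**Figure D2:**
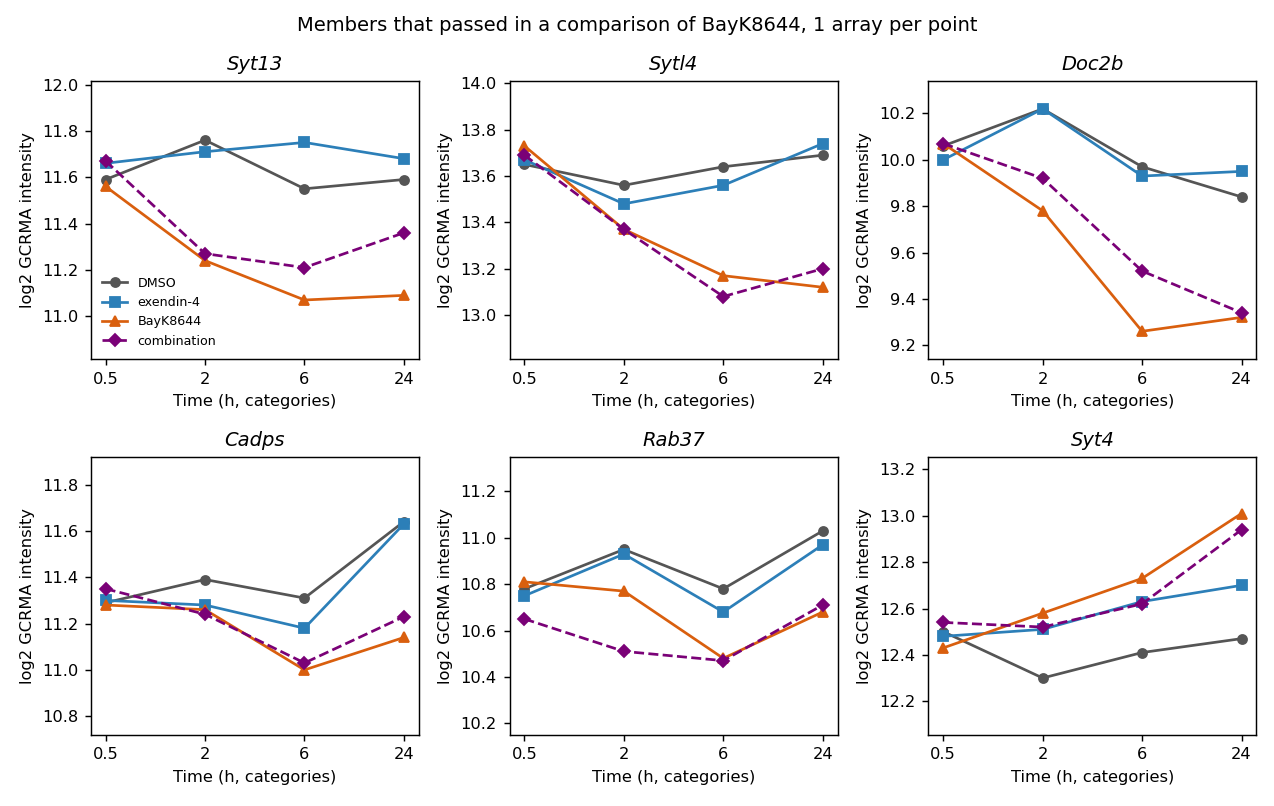
Log2 intensity at 0.5, 2, 6 and 24 h (spaced as categories) of 6 genes that passed in a comparison of BayK8644, 1 array per point, with every panel spanning the same log2 range. The 4 treatments lie close together at 0.5 h, and from 2 h on the BayK8644 and combination points of Syt13, Sytl4, Doc2b, Cadps and Rab37 lie below those of DMSO and exendin-4.

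By time, 0 of 38 genes passed at 0.5 h, beside 0.217% of all genes, and 0 had an unadjusted limma p under 0.05. At 2 h 1 fell, Syt13, beside 0.481% of all genes, and 0 rose, beside 1.15%. At 6 h 3 fell, Sytl4, Syt13 and Doc2b, beside 0.773%, and 0 rose, beside 1.71%. At 24 h 4 fell, those 3 and Cadps, beside 2.12%, and 0 rose, beside 2.99%.

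These calls at single times rest on few arrays. How many of all genes passed with an array left out or in another setting was not counted, here or below. Without any 1 of the 4 arrays of 2 h or of 6 h, the count at that time was 0. Doc2b at 6 h was also lost without any 1 of the 0.5 h arrays, at adjusted p up to 0.267 over all these. At 24 h 7 genes passed on leaving out either DMSO or BayK8644 alone, and Doc2b was lost on leaving out exendin-4 alone or the combination (adjusted p up to 0.117). The residuals of these genes were also largest at 24 h, with a root mean square of 0.064 against 0.025 at 0.5 h. For all genes tested the values were 0.092 and 0.051. Residuals hold any departure from the sum of the agents' effects as well as spread between arrays. With arrays weighted by time, Sytl4 was the one that passed at 24 h, while Cadps, Syt13 and Doc2b had adjusted p of 0.0652, 0.0681 and 0.0983.

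The change of the BayK8644 difference between 0.5 and 24 h was tested directly. It passed for Sytl4, at -0.60 ± 0.07 (adjusted p = 0.00703), 1 of 38 genes, beside 0.415% of all genes that fell and 0.603% that rose. With the mean of the Sytl4 probe sets the change was -0.41 and did not pass (adjusted p = 0.245). Cadps, Doc2b and Syt13 changed by -0.48 ± 0.10, -0.60 ± 0.14 and -0.40 ± 0.10, with adjusted p of 0.0704, 0.0894 and 0.104. The Sytl4 call was lost without any 1 of the 0.5 h arrays (adjusted p up to 0.107), and 4 genes passed on leaving out the 24 h array of either DMSO or BayK8644 alone.

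Of the 11 cell type markers that passed the filter, 3 passed the test for BayK8644 at 24 h. Nkx2-2, a beta-cell transcription factor, fell by 0.64 ± 0.06 (adjusted p = 0.000499). The other 6 beta-cell markers did not pass and had mixed signs: Pdx1 differed by 0.00 ± 0.05, Ins2 by 0.01 ± 0.06, Iapp by 0.10 ± 0.05, Slc2a2 by 0.54 ± 0.23, Neurod1 by -0.24 ± 0.07 and Nkx6-1 by -0.28 ± 0.09. Gcg, which encodes glucagon, rose by 0.56 ± 0.10 (adjusted p = 0.0176) and Sst, somatostatin, by 2.36 ± 0.18 (adjusted p = 0.000218) at that time. Sst read 7.37 and 7.61 on the arrays with BayK8644 at 24 h, against 5.14 and 5.13 without it. Irx2, a transcription factor of alpha cells, had the opposite sign to Gcg and did not pass, at -0.64 ± 0.19 (adjusted p = 0.0911), with both arrays with BayK8644 below both without it. Cela1, an acinar marker, differed by 0.18 ± 0.11. The part of these shifts in the results for the granule genes was not tested.

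**Figure D3:**
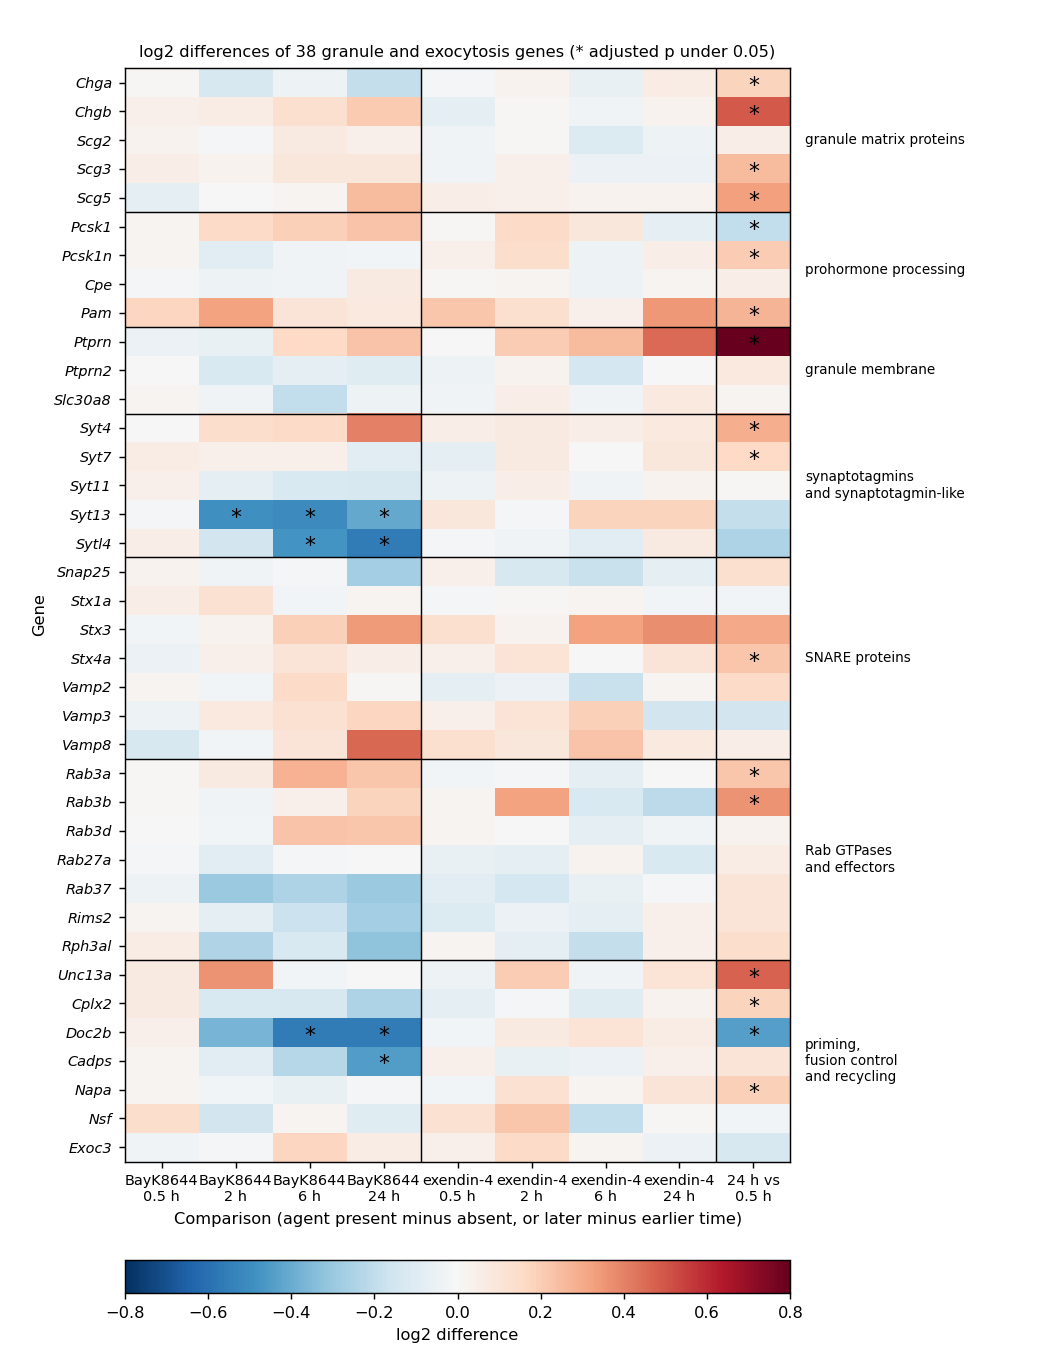
Log2 differences of 38 genes (rows, grouped by role) for BayK8644 present minus absent and exendin-4 present minus absent at each time, 2 arrays against 2, and for 24 h minus 0.5 h, 4 arrays against 4. Asterisks mark an adjusted p under 0.05: they fall on Syt13, Sytl4, Doc2b and Cadps under BayK8644, on no gene under exendin-4, and on 17 genes between the times.

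Exendin-4 was followed by no change past the threshold in these genes by limma. Over all times 0 passed, beside 0% of all genes, and 3 had an unadjusted p under 0.05, Ptprn, Pam and Stx3. The shares of all genes that passed were 0.00943% at 0.5 h, 0.0189% at 2 h, 0% at 6 h and 0% at 24 h, and 0 of 38 genes passed at each of these times; 0, 3, 3 and 3 had an unadjusted p under 0.05. The 7 other settings and every fit with 1 array left out also gave 0 in these 5 comparisons.

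Ptprn, a phosphatase-like granule membrane protein also known as IA-2, came nearest. It read 10.81, 11.04, 11.03 and 11.17 with DMSO, 10.79, 11.17, 11.32 and 11.75 with exendin-4, 10.74, 10.92, 11.23 and 11.52 with BayK8644, and 10.77, 11.18, 11.45 and 11.85 with the combination. Every treated group ends above DMSO at 24 h, with exendin-4 and the combination highest. The exendin-4 difference was 0.23 ± 0.06 over all times, with a 95% interval from 0.09 to 0.36 (adjusted p = 0.23), higher in 7 of 8 pairs, and 0.45 ± 0.08 at 24 h (adjusted p = 0.518). Pam, read by 1 dim probe set, stood at 5.21, 5.10, 5.24 and 5.38 with DMSO, 5.33, 5.20, 5.33 and 5.79 with exendin-4, 5.28, 5.39, 5.38 and 5.51 with BayK8644, and 5.60, 5.54, 5.38 and 5.81 with the combination. It differed by 0.19 ± 0.06 with exendin-4 (adjusted p = 0.288), higher in 7 of 8 pairs.

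For the genes that fell with BayK8644, the exendin-4 differences over all times were 0.11 ± 0.06 for Syt13, -0.01 ± 0.07 for Sytl4, 0.05 ± 0.08 for Doc2b, -0.08 ± 0.05 for Rab37 and -0.01 ± 0.06 for Cadps, none past the threshold. Their 95% intervals reached from -0.17 for Sytl4 and Rab37 to 0.25 for Syt13.

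Whether the agents acted on a gene other than by the sum of their separate differences was tested as an interaction. By limma 0 of 38 genes passed, beside 0% of all genes, and 3 had an unadjusted p under 0.05. These were Rims2 at -0.35 ± 0.09 (adjusted p = 0.614), Pcsk1 at 0.31 ± 0.09 (adjusted p = 0.661) and Stx3 at 0.38 ± 0.16 (adjusted p = 0.736). The 95% interval for Rims2 ran from -0.55 to -0.15.

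Set against DMSO over all times, the combination passed for 2 of 38 genes. Rab37 fell, at -0.30 ± 0.06 (adjusted p = 0.0211), beside 2.59% of all genes, and Pam rose, at 0.35 ± 0.09 (adjusted p = 0.0353), beside 4.38%. For both, the 4 combination arrays did not overlap the 4 DMSO arrays. Both calls were lost without the 2, 6 or 24 h array of either group (adjusted p up to 0.0914 and 0.115), where the count was 0; it was 8 without DMSO 0.5 h, 7 without exendin-4 24 h and 12 without combination 0.5 h. The shares of all genes that passed in these fits were not counted. The combination and DMSO arrays also enter the comparisons of BayK8644 and exendin-4.

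More of these genes passed for time in culture than for either agent. Between 0.5 and 24 h, over the 4 treatments, 15 of 38 genes rose, beside 10.6% of all genes, and 2 fell, beside 13%. The median difference was 0.12, beside -0.00 for all genes. Those that rose were 4 of 5 matrix proteins, 2 of 4 processing genes, 1 of 3 membrane genes, 2 of 5 synaptotagmins, 1 of 7 SNARE genes, 2 of 7 Rab genes and 3 of 7 priming genes.

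The matrix genes that passed were higher at 24 h in all 4 treatments. For Chgb, the 0.5 and 24 h arrays do not overlap, and the difference was 0.49 ± 0.05 (adjusted p = 4.44e-06), 1.40-fold. Scg5, which encodes 7B2, a chaperone of the convertase PC2, measured 14.29, 14.31, 14.37 and 14.51 with DMSO, 14.34, 14.28, 14.33 and 14.44 with exendin-4, 14.20, 14.24, 14.32 and 14.65 with BayK8644, and 14.26, 14.36, 14.42 and 14.80 with the combination. It rose by 0.33 ± 0.05 (adjusted p = 0.00074), and the 24 h arrays all lay above those of 0.5 h.

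Scg3, a granin that links aggregated cargo to the granule membrane, read 13.69, 13.80, 13.83 and 13.94 with DMSO, 13.68, 13.82, 13.72 and 13.88 with exendin-4, 13.75, 13.81, 13.86 and 14.02 with BayK8644, and 13.71, 13.86, 13.88 and 13.97 with the combination. It rose by 0.25 ± 0.03 (adjusted p = 0.000111) with no overlap of these times. Chga stood at 14.26, 14.35, 14.29 and 14.50 with DMSO, 14.26, 14.33, 14.22 and 14.58 with exendin-4, 14.27, 14.17, 14.24 and 14.32 with BayK8644, and 14.26, 14.25, 14.19 and 14.37 with the combination. It rose by 0.18 ± 0.04 (adjusted p = 0.00809), more on the arrays without BayK8644 (0.24 and 0.32) than on those with it (0.05 and 0.11), a difference that did not pass when tested (-0.20 ± 0.07, adjusted p = 0.223). Scg2 was the matrix gene that did not pass, at 0.05 ± 0.03.

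Of the processing genes, Pcsk1n, an inhibitor of the convertase PC1/3, measured 13.63, 13.85, 13.84 and 13.87 with DMSO, 13.70, 13.82, 13.80 and 13.90 with exendin-4, 13.68, 13.59, 13.81 and 13.84 with BayK8644, and 13.68, 13.90, 13.76 and 13.89 with the combination. It rose by 0.20 ± 0.05 (adjusted p = 0.00966), with the 0.5 h arrays all below those of 24 h. Pcsk1, the gene of that convertase, read 11.29, 11.17, 10.98 and 11.14 with DMSO, 11.28, 11.18, 10.86 and 10.82 with exendin-4, 11.30, 11.19, 10.96 and 11.12 with BayK8644, and 11.32, 11.47, 11.27 and 11.30 with the combination. It fell, at -0.20 ± 0.06 (adjusted p = 0.0384), with the combination array at 24 h inside the range of 0.5 h. Pam rose by 0.27 ± 0.09 (adjusted p = 0.0414), with overlapping times.

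Ptprn had the largest change of the 38 genes, 0.80 ± 0.09 (adjusted p = 2.37e-05), 1.74-fold, and rose in all 4 treatments. Its rise was 0.36 in DMSO, 0.78 in BayK8644, 0.96 in exendin-4 and 1.08 in the combination. Ptprn2 differed by 0.08 ± 0.05 (adjusted p = 0.298). Syt4 rose by 0.29 ± 0.07 (adjusted p = 0.00973), although in DMSO it read 12.50 at 0.5 h and 12.47 at 24 h. Syt7, a calcium sensor of insulin granules, stood at 13.39, 13.55, 13.48 and 13.46 with DMSO, 13.27, 13.53, 13.55 and 13.66 with exendin-4, 13.40, 13.50, 13.58 and 13.48 with BayK8644, and 13.38, 13.67, 13.52 and 13.46 with the combination. It rose by 0.16 ± 0.05 (adjusted p = 0.0469), and its times do not overlap.

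**Figure D4:**
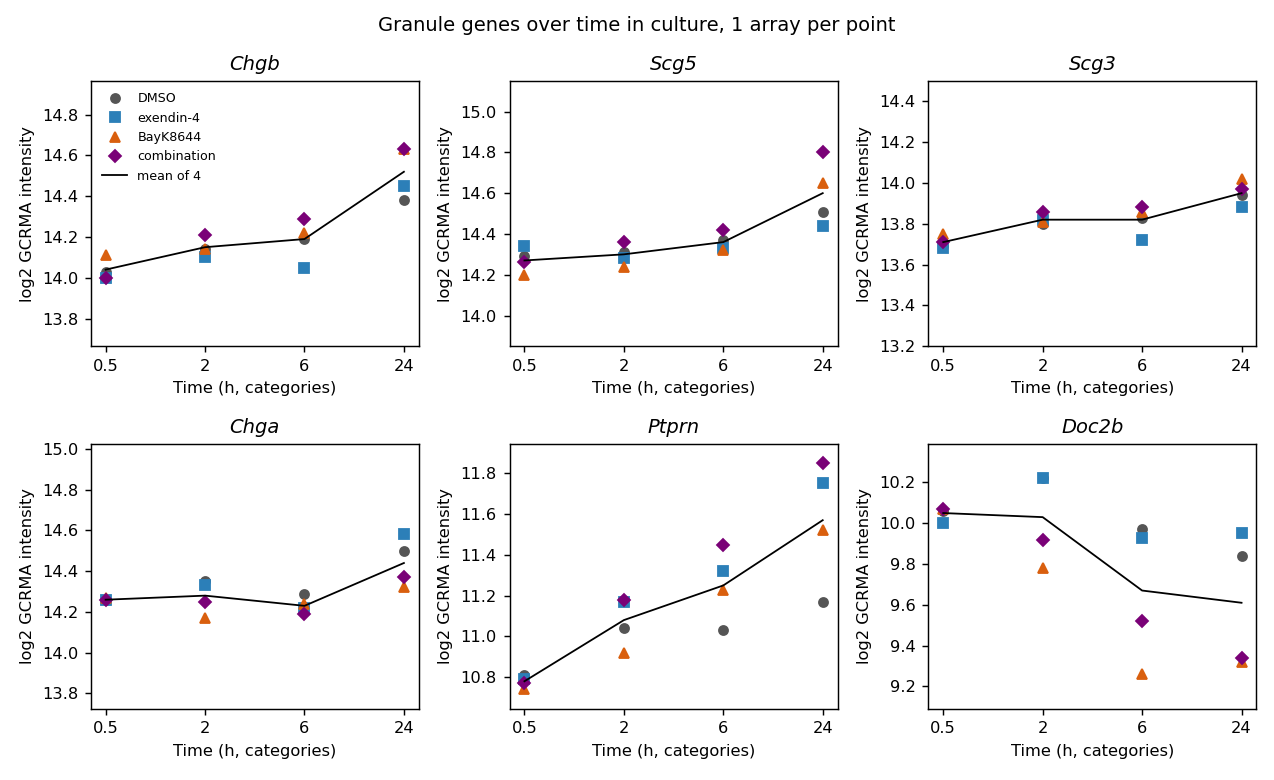
Log2 intensity at 0.5, 2, 6 and 24 h (spaced as categories) of 6 genes, 1 array per point by treatment, with the mean of the 4 arrays as a line and every panel spanning the same log2 range. Chgb, Scg5, Scg3, Chga and Ptprn end higher at 24 h in all 4 treatments, and Doc2b ends lower, mainly on the BayK8644 and combination arrays.

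Stx4a was the SNARE gene that passed; its protein, syntaxin 4, serves at the plasma membrane. It measured 9.32, 9.29, 9.36 and 9.43 with DMSO, 9.31, 9.56, 9.40 and 9.54 with exendin-4, 9.23, 9.49, 9.50 and 9.49 with BayK8644, and 9.30, 9.44, 9.46 and 9.58 with the combination. The times do not overlap, and the rise was 0.22 ± 0.06 (adjusted p = 0.015). Among Rab genes, Rab3a, the main Rab3 protein of synaptic vesicles, read 10.61, 10.75, 10.77 and 10.83 with DMSO, 10.71, 10.63, 10.66 and 10.72 with exendin-4, 10.75, 10.71, 11.01 and 10.94 with BayK8644, and 10.60, 10.80, 10.98 and 11.05 with the combination. It rose by 0.22 ± 0.07 (adjusted p = 0.0294), and the times overlap, since exendin-4 at 24 h (10.72) lay below BayK8644 at 0.5 h (10.75). Rab3b stood at 9.32, 9.11, 9.34 and 9.78 with DMSO, 9.34, 9.45, 9.08 and 9.43 with exendin-4, 9.34, 9.11, 9.24 and 9.83 with BayK8644, and 9.36, 9.40, 9.26 and 9.75 with the combination. The rise was 0.36 ± 0.10 (adjusted p = 0.0178), 0.09 in exendin-4 and 0.39 to 0.49 in the other treatments, and the times do not overlap.

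Unc13a, which encodes the priming factor Munc13-1, measured 7.82, 7.63, 8.09 and 8.09 with DMSO, 7.64, 7.93, 8.02 and 8.38 with exendin-4, 7.75, 8.09, 8.03 and 8.27 with BayK8644, and 7.85, 8.19, 8.04 and 8.21 with the combination. It rose by 0.47 ± 0.10 (adjusted p = 0.00357), and all 24 h arrays lay above those of 0.5 h. Napa, which encodes alpha-SNAP, the adaptor for recycling of SNARE complexes, read 12.47, 12.58, 12.68 and 12.65 with DMSO, 12.48, 12.67, 12.69 and 12.71 with exendin-4, 12.52, 12.53, 12.61 and 12.60 with BayK8644, and 12.47, 12.68, 12.63 and 12.74 with the combination. Its rise was 0.19 ± 0.04 (adjusted p = 0.00311), with no overlap of these times. Cplx2 stood at 10.21, 10.44, 10.26 and 10.51 with DMSO, 10.18, 10.37, 10.13 and 10.55 with exendin-4, 10.31, 10.26, 10.11 and 10.28 with BayK8644, and 10.20, 10.31, 10.03 and 10.30 with the combination. It rose by 0.18 ± 0.06 (adjusted p = 0.0474), with overlapping times. Doc2b fell by 0.44 ± 0.11 (adjusted p = 0.00942), with 24 h minus 0.5 h at -0.22 in DMSO, -0.06 in exendin-4, -0.74 in BayK8644 and -0.73 in the combination.

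Of the 17 calls for time, 10 held in every fit with 1 array left out, and the count lay between 12 and 17. Rab3b was lost without DMSO 24 h, BayK8644 24 h or combination 0.5 h (adjusted p up to 0.0749) and Stx4a without BayK8644 0.5 h or combination 24 h (up to 0.0606). Rab3a was lost without the 0.5 or 24 h array of any treatment but exendin-4 (up to 0.111). Pcsk1 was lost without any 24 h array but that of DMSO, or any 0.5 h array but that of the combination (up to 0.132). Pam was lost without any 1 of 9 arrays (up to 0.125): every 0.5 h array, DMSO 2 h, BayK8644 6 h, exendin-4 6 or 24 h and combination 24 h. Cplx2 held only without BayK8644 0.5 or 24 h (up to 0.144), and Syt7 only without DMSO 0.5 h or combination 2 or 24 h (up to 0.163). With arrays weighted by time 11 of 38 passed. The arrays at the 2 times differ in nothing else that the labels record, but plating, medium and handling cannot be told apart from time.

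Beyond these 40 genes, 108 further genes of granule cargo, SNARE, synaptotagmin, Rab and exocyst families were read, and 77 passed the filter. Under BayK8644 over all times 1 of the 77 rose and 2 fell, beside 4.85% and 3.69% of all genes. Vgf, a granin-like cargo protein, rose by 1.11 ± 0.14 (adjusted p = 0.000492), 2.15-fold and higher in 8 of 8 pairs, and by 1.16, 1.59 and 1.37 at 2, 6 and 24 h. It stood between 9.65 and 10.45 on all 8 arrays without BayK8644 and between 11.16 and 11.72 on the 6 arrays with it from 2 h on. Stxbp4, a syntaxin-binding protein, and Stx16, a syntaxin of the trans-Golgi, had differences of -0.20 ± 0.05 (adjusted p = 0.0265) and -0.19 ± 0.06 (adjusted p = 0.0494). Nucb2, the precursor of nesfatin-1, rose by 0.34 ± 0.06 at 24 h (adjusted p = 0.0179). Under exendin-4 0 of 77 passed by limma over all times, beside 0% of all genes, with 6 at an unadjusted p under 0.05. Between 0.5 and 24 h 8 of the 77 rose and 5 fell, beside 10.6% and 13% of all genes. Of the 38 genes 15 rose and 2 fell.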

How the data were processed

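Total RNA, 5 µg per array, was hybridised to 16 Affymetrix mouse arrays, 1 per treatment and time. Per the submitters' processing notes, the authors used GCRMA, a method that corrects background and normalizes between arrays. Its version is not given in the sources used here. What they deposited is a linear intensity for each probe set, and these were turned here into log2 intensity without a pseudocount. Symbols come from the platform annotation, and of 45101 probe sets 34945 had 1 symbol, 932 several and 9160 none; those with several or none were not used, nor were 64 control probe sets. Each gene was read from its probe set with the highest mean among those at log2 4 or more on at least 2 arrays, which left 10610 genes. Brightness and the number of arrays limit the precision.

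The fits used limma 3.58.1 in R 4.3.3 with an intensity trend and Benjamini-Hochberg adjustment at 0.05 over all genes tested. Averages over times, the interaction and the time comparison came from a model of treatment plus time (9 residual degrees of freedom), and values at single times from a model of each agent at each time, without an interaction (4 residual degrees of freedom). The script was tested on simulated data. The members and gene lists were chosen with earlier results of these data known. Genes of the list were reported by role, with every array's value for those called and for the brightest and dimmest of each role. Alternatives were no filter, a filter of log2 6 on 4 arrays, the mean of probe sets, log2(intensity + 16), no intensity trend, array weights by time, arrays centred on their median, and each array left out in turn.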

Additional observations from a re-analysis of the deposited data

Results flagged for a closer look

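Within the 4 arrays of a treatment, 7 of 152 gene and treatment groups held an array that stood apart from the other 3 by Dixon's test; these 4 arrays are also 4 times, and chance gives about 1 in 20. In DMSO at 0.5 h, Pcsk1n read 13.63 against 13.84 to 13.87, Stx1a 9.89 against 9.92 to 9.93, and Stx3 5.75 against 5.88 to 5.90 at the later times. Vamp2 read 11.57 in DMSO at 2 h against 11.34 to 11.38. Stx4a read 9.23 in BayK8644 at 0.5 h against 9.49 to 9.50, Slc30a8 13.49 in exendin-4 at 24 h against 13.37 to 13.38, and Stx1a 10.06 in the combination at 2 h against 9.92 to 9.94.

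The BayK8644 difference of Sytl4 changed between 0.5 and 24 h by -0.60 ± 0.07 (adjusted p = 0.00703 from limma). Both arrays with BayK8644 were above both without it at 0.5 h, by 0.07 and 0.02 within pairs, and below them at 24 h. The second, dim Sytl4 probe set differed by -0.07 at 0.5 h, and its change was -0.22. With the mean of both probe sets the change was -0.41 and did not pass (adjusted p = 0.245 from limma).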

How the results depend on the processing

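Of 34 gene results past the threshold, 16 stayed past it in every one of the 16 fits with 1 array left out, 18 in every one of 7 other settings, and 14 in all; 0 reversed. Arrays are matched by time, and time entered every fit as a term, so the comparisons of agents are already within time; the labels carry no replicate numbers for a further block. The counts of genes past the threshold ranged, with 1 array left out, from 3 to 12 for BayK8644 over all times, 0 to 12 for the combination against DMSO, 12 to 17 for time, 0 to 1 for BayK8644 at 2 h, 0 to 3 at 6 h, 3 to 7 at 24 h, and 0 to 4 for its change from 0.5 to 24 h. Without the filter, 3 passed for BayK8644 over all times and 1 for the combination. With arrays weighted by time, 10 passed for the combination, 11 for time and 1 for BayK8644 at 24 h. With arrays centred on their median, 1 passed for the combination and 7 for BayK8644 at 24 h, and with the stricter filter 7 for the latter. With the mean of probe sets, 0 passed for BayK8644 at 2 h and 0 for its change from 0.5 to 24 h. The cause of these shifts was not tested, and the share of all genes that passed in each of these fits was not counted. Of 20 gene results past the threshold with further probe sets above the filter, all of these had the same sign in 18; the exceptions were Sytl4 at 6 h and Syt7 over time. Signals near the filter, as for Pam, limit what its probe set can show.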
